A study of Sus scrofa with 9 samples.

Results

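Mitotic and cell cycle control genes were followed in endothelial cells of pig coronary arteries, as a list of 50 gene symbols that covers cyclins and their kinases, kinetochore, checkpoint, anaphase, spindle, cytokinesis and chromosome genes. Of these 50 genes, 28 had a probe set whose platform annotation gives that symbol alone. The other 22 were not analysed here: CCND1, CCND3, CCNE1, CCNE2, CDK4, CDK6, E2F1, CDK1, CENPA, CENPE, BUB1, BUB1B, TTK, KIF11, KIF4A, KIF23, TPX2, PRC1, ANLN, ECT2, SMC2 and NCAPG. All 28 also passed the filter on dim probe sets, and they stand among 5494 genes tested by name. A gene with several probe sets was read from its brightest, by mean log2 value over the arrays. RNA of the cultured cells was measured on 9 Affymetrix arrays, 3 per group. Passage 4 cells came from weekly serial passaging, and the labels name them senescent. Regenerated cells had grown back in the animal after the endothelium was stripped off, and were then scraped and kept in culture with no passage. Passage 1 cells, the controls, had spent 1 week in primary culture. All groups were sampled at basal condition, and the labels give no animal, sex, age or clone. They also do not say whether the arrays of a group came from separate cultures or animals, so these arrays could be technical repeats. A p-value here weighs a difference against the spread of such arrays within groups, pooled over the 3 groups. Labelling started from 0.5 to 1 ug of total RNA in the regenerated group and from 1 ug at passage 4 and passage 1, so RNA input and group cannot be told apart for regenerated cells.

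A cell divides by switching cyclin-dependent kinases on and off in order: D and E cyclins take it out of the resting state, cyclin A carries DNA replication, and cyclin B with CDK1 starts mitosis. Kinetochore proteins then tie chromosomes to the spindle, a checkpoint holds the cell until every chromosome is attached, and the anaphase-promoting ubiquitin ligase destroys cyclin B and securin to let sister chromosomes part. Most of these genes are transcribed late in the cycle and shut off in resting or arrested cells, which is why their transcripts are widely read as a sign of dividing cells. In the quiescent endothelium of an intact artery few cells divide, whereas cultured endothelial cells proliferate until they reach replicative senescence.

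Every value below is a MAS5 signal, the authors' summary of a probe set's brightness on a linear scale, and signals of different probe sets are not compared with each other. Differences are of log2(signal + 16), tested with limma over 15299 probe sets, and a gene rose or fell only where its Benjamini-Hochberg adjusted p was under 0.05. The precision is limited by 3 arrays a group. Of the endothelial junction genes, PECAM1 ran from 7343 to 9079 at passage 4, from 5519.6 to 7771 in regenerated cells and from 7126 to 8645 at passage 1, and CDH5 from 8524 to 9924 at passage 4, from 8562 to 11246 in regenerated cells and from 9096 to 10855 at passage 1. VWF and KDR, further endothelial markers, were dim in all groups, at most 52.1 and 23.6. Other endothelial markers moved: of 11 tested, 8 lay below 0 at passage 4 against passage 1 (median -0.41), where NOS3, for the nitric oxide synthase, fell (-0.97, adjusted p = 0.045) and the junction gene CLDN5 was at -0.97 (adjusted p = 0.104). In regenerated cells against passage 1 CLDN5 fell (-1.62, adjusted p = 0.0134) and ENG, for endoglin, rose (1.92, adjusted p = 0.0153). The part of these shifts in the levels of the 28 genes was not tested. The bacterial spike-ins dap and thr split the arrays by their 5' minus 3' signal, a measure of how far the labelled RNA reached. On the log2 scale the passage 4 arrays had -2.09, -1.77 and -1.82, the regenerated arrays -4.36, -4.66 and -5.19 and the passage 1 arrays -1.99, -4.87 and -4.25. By this signal alone passage 4 falls in 1 spike-in class with passage 1 array 1, and regenerated cells fall in the other with passage 1 arrays 2 and 3; no label names these classes.

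At passage 4, 12 of the 28 genes rose against passage 1, 0 fell and 16 did not pass, while 4.79% of all tested probe sets passed, 2.71% higher and 2.08% lower. The rises covered cyclins A2, B1 and B2, the kinase AURKB and its partner survivin, the kinetochore gene CENPF, the anaphase genes PTTG1 and UBE2C, and spindle genes. With the spike-in class as a block 2 of 28 passed, and without passage 4 array 1, 2 or 3 the counts were 5, 4 and 2. Of all tested probe sets 0.980% passed with that block, and 2.03%, 1.96% and 1.71% without those arrays. All 28 fitted differences lay above 0, with a median of 0.91 on the log2 scale, whereas 53.9% of all tested probe sets lay above 0 and their median was 0.036. In 24 of the 28 genes all 3 passage 4 arrays were above all 3 passage 1 arrays, which held for 15.3% of tested probe sets. Passage 4 had the highest group mean of the 3 in 28 of 28 genes, against 36.9% of tested probe sets. In RNA of a whole culture, more dividing cells and more RNA per dividing cell cannot be told apart.

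**Figure D1:**
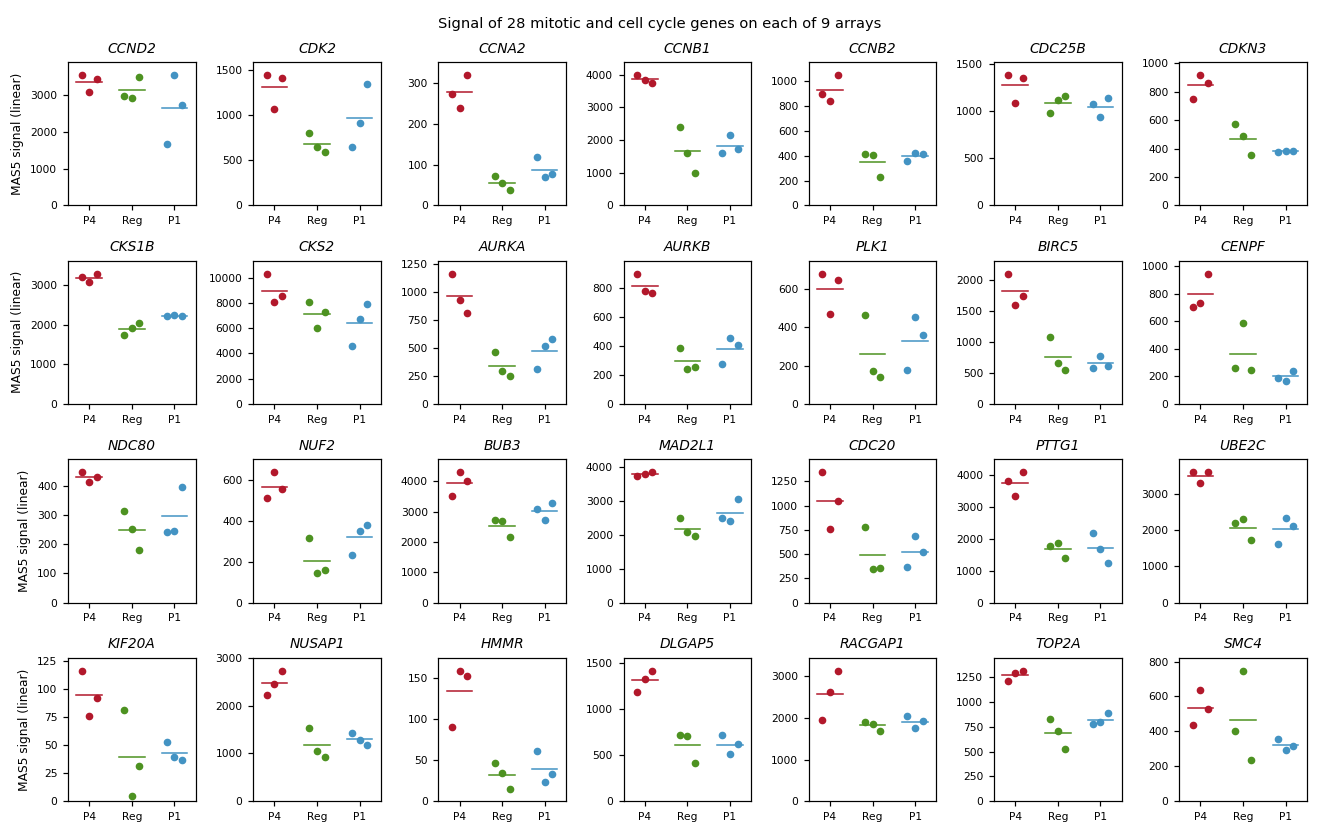
Each panel is 1 gene, its y axis the MAS5 signal on a linear scale from 0, with 3 arrays (points) and their mean (line) at passage 4 (P4), in regenerated cells (Reg) and at passage 1 (P1). In 21 of the 28 panels the 3 passage 4 points lie above all 6 others, which held for 8.02% of all tested probe sets.

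The mitotic cyclins rose together at passage 4. CCNA2, for cyclin A2, which acts in DNA replication and at mitotic entry, stood at 274, 239.5 and 321 at passage 4, at 72.9, 56.3 and 39.1 in regenerated cells and at 118, 69.3 and 76.3 at passage 1. The log2 difference between passage 4 and passage 1 was 1.52 (SE 0.28, adjusted p = 0.0126), or 2.87-fold. All 3 passage 4 arrays were at least 239.5, and the highest other array was passage 1 array 1. CCNB1, for the main mitotic cyclin, stood at 3987, 3844 and 3752 at passage 4, 2412, 1604 and 1002 in regenerated cells and 1599, 2166 and 1728 at passage 1, a difference of 1.08 between passage 4 and passage 1 (SE 0.26, adjusted p = 0.039). CCNB2, the second B cyclin, stood at 902, 842 and 1052 at passage 4, 417, 408 and 233 in regenerated cells and 359, 427 and 414 at passage 1, and its difference was 1.19 (SE 0.24, adjusted p = 0.0194). For both B cyclins the passage 4 arrays lay above the other 6, and regenerated array 3 was the lowest of all 9.

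The regulators of CDK1 varied more. CDKN3, a phosphatase that acts on cyclin-dependent kinases, stood at 753, 918 and 865 at passage 4, 571, 486 and 355 in regenerated cells and 378, 384 and 383 at passage 1. Every passage 4 array lay above the other 6, and the difference between passage 4 and passage 1 was 1.11 (SE 0.21, adjusted p = 0.0137). CKS1B, a small subunit that binds cyclin-dependent kinases, stood at 3204, 3071 and 3291 at passage 4, 1746, 1913 and 2039.9 in regenerated cells and 2226, 2239 and 2221 at passage 1. The 3 groups did not overlap, with passage 4 highest and regenerated cells lowest, but the difference between passage 4 and passage 1 of 0.51 missed the threshold (95% interval 0.21 to 0.81, adjusted p = 0.0552). Its paralog CKS2 ran from 8078 to 10315 at passage 4, from 5974 to 8060.0 in regenerated cells and from 4593 to 7893 at passage 1, and did not pass (0.51, adjusted p = 0.176). CDC25B, a phosphatase that switches CDK1 on, ran from 1089 to 1382 at passage 4, from 982 to 1157 in regenerated cells and from 936 to 1138 at passage 1, overlapped between the groups, and its difference was 0.28 (95% interval -0.10 to 0.65, adjusted p = 0.437).

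Neither measured gene of the cycle's first phase passed between passage 4 and passage 1. CDK2, the kinase partner of the E and A cyclins, stood at 1445, 1063 and 1411 at passage 4, 804, 651 and 596 in regenerated cells and 651, 914 and 1339.6 at passage 1. Passage 1 array 3 lay among the passage 4 arrays, and the difference of 0.47 did not pass (95% interval -0.086 to 1.03, adjusted p = 0.349). CCND2, for cyclin D2, which links growth factor signals to the cycle, ran from 3086 to 3535 at passage 4, from 2924 to 3494 in regenerated cells and from 1669 to 3523 at passage 1. The 3 groups overlapped, and the difference between passage 4 and passage 1 was 0.40 (95% interval -0.10 to 0.91, adjusted p = 0.38). These were the measured members among 9 listed cyclins, kinases and E2F1 of that phase.

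Among the mitotic kinases, 1 of 3 rose at passage 4 against passage 1, and so did survivin, where 2.71% of all tested probe sets rose. AURKB, the kinase of the chromosomal passenger complex, which corrects faulty spindle attachments, stood at 902, 778 and 766 at passage 4, 385, 242 and 257 in regenerated cells and 275, 455 and 409 at passage 1, a difference between passage 4 and passage 1 of 1.10 (SE 0.25, adjusted p = 0.0297). BIRC5, for survivin, a subunit of the same complex, stood at 2097, 1595 and 1735 at passage 4, 1075, 652 and 541 in regenerated cells and 578, 774 and 612 at passage 1, and its difference was 1.45 (SE 0.25, adjusted p = 0.0094), or 2.72-fold. For both genes every passage 4 array was above the other 6. AURKA, the kinase of the spindle poles, stood at 1168, 928 and 815 at passage 4, 466, 299 and 248 in regenerated cells and 313, 523 and 579 at passage 1. Its passage 4 arrays lay above the other 6, but the difference of 1.05 missed the threshold (95% interval 0.42 to 1.68, adjusted p = 0.0621). PLK1, a kinase that acts throughout mitosis, ran from 471 to 681 at passage 4, from 143 to 466 in regenerated cells and from 176 to 452 at passage 1, and was at 0.91 with a wide interval of -0.0099 to 1.83 (adjusted p = 0.261).

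CENPF, a kinetochore protein that appears late in the cycle, showed the highest difference of the 28 between passage 4 and passage 1. It stood at 703, 737 and 947 at passage 4, 260.0, 592 and 245 in regenerated cells and 190.4, 170.5 and 239 at passage 1, a difference of 1.91 (SE 0.31, adjusted p = 0.0069), or 3.76-fold. Regenerated array 2 lay well above the other regenerated arrays and below every passage 4 array. NUF2, a subunit of the NDC80 complex that binds microtubules, stood at 512, 640.5 and 556 at passage 4, 315, 145 and 159.5 in regenerated cells and 232, 349 and 378 at passage 1, and at 0.82 it did not pass between passage 4 and passage 1 (95% interval 0.18 to 1.47, adjusted p = 0.145). NDC80, the complex's namesake, ran from 415 to 449 at passage 4, from 182 to 315 in regenerated cells and from 244 to 398 at passage 1, with a difference of 0.56 (95% interval -0.0097 to 1.12, adjusted p = 0.265). For both, the passage 4 arrays were nevertheless above every other array.

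Neither measured checkpoint gene passed between passage 4 and passage 1, although for both the passage 4 arrays lay above the other 6. MAD2L1, for MAD2, which blocks the anaphase-promoting complex, stood at 3708, 3791 and 3837 at passage 4, 2485, 2063 and 1959 in regenerated cells and 2489.9, 2403 and 3032 at passage 1, a difference of 0.52 (95% interval 0.19 to 0.86, adjusted p = 0.0793). BUB3, another part of the checkpoint, stood at 3499, 4299 and 4015 at passage 4, 2725, 2699 and 2158 in regenerated cells and 3086, 2710.0 and 3275 at passage 1, and was at 0.38 (95% interval 0.037 to 0.72, adjusted p = 0.203). Both genes were lowest in regenerated array 3.

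Of the anaphase genes 2 of 3 rose at passage 4 against passage 1, where 2.71% of all tested probe sets rose. PTTG1, for securin, the inhibitor that keeps sister chromosomes from parting before anaphase, stood at 3830.3, 3348 and 4102 at passage 4, 1782, 1880.1 and 1411 in regenerated cells and 2188, 1671 and 1248 at passage 1, a difference between passage 4 and passage 1 of 1.17 (SE 0.21, adjusted p = 0.0109). UBE2C, the ubiquitin-conjugating enzyme of the anaphase-promoting complex, stood at 3598, 3294 and 3596 at passage 4, 2192, 2292 and 1716 in regenerated cells and 1627, 2326 and 2117 at passage 1, and its difference was 0.80 (SE 0.18, adjusted p = 0.0283). In both, the lowest passage 4 array lay above the highest of the other 6. CDC20, which activates that complex, stood at 1346, 755 and 1045 at passage 4, 775, 348 and 361 in regenerated cells and 369, 684 and 519.6 at passage 1. Regenerated array 1 lay above passage 4 array 2, and the difference between passage 4 and passage 1, 0.98, did not pass (95% interval 0.25 to 1.72, adjusted p = 0.128).

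Of the 4 measured spindle genes 3 rose at passage 4 against passage 1, where 2.71% of all tested probe sets rose. NUSAP1, which bundles spindle microtubules, stood at 2224, 2450.5 and 2734 at passage 4, 1526, 1061 and 934 in regenerated cells and 1421, 1288 and 1175 at passage 1, a difference between passage 4 and passage 1 of 0.92 (SE 0.20, adjusted p = 0.0256). DLGAP5, a stabiliser of kinetochore fibres, stood at 1192, 1331 and 1421 at passage 4, 724, 714 and 411 in regenerated cells and 715, 508 and 624 at passage 1, and its difference was 1.08 (SE 0.24, adjusted p = 0.0278). Both separated passage 4 from every other array. HMMR, a hyaluronan receptor that also acts in spindle assembly, was dim, at 90.1, 159 and 152 at passage 4, 47.0, 34.1 and 15.1 in regenerated cells and 61.5, 23.0 and 33.1 at passage 1, with a difference of 1.47 (SE 0.37, adjusted p = 0.0437). HMMR met the filter on dim probe sets only through passage 4, lying above an array's 40th percentile on 3 passage 4, 0 regenerated and 1 passage 1 arrays, so its difference carries no weight. Without it 11 of 27 genes rose against passage 1 and 19 of 27 against regenerated cells, where 2.71% and 8.14% of all tested probe sets rose. KIF20A, a motor of the central spindle, stood at 116, 75.5 and 91.5 at passage 4, 81.5, 4.27 and 31.6 in regenerated cells and 52.7, 39.1 and 36.4 at passage 1, and was at 0.90 with an interval of -0.11 to 1.92 (adjusted p = 0.322).

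The measured cytokinesis and chromosome genes did not pass between passage 4 and passage 1. RACGAP1, part of the complex that marks the division plane, stood at 1954, 2629 and 3137 at passage 4, 1908, 1861 and 1692 in regenerated cells and 2052, 1759 and 1918 at passage 1, so that passage 4 array 1 lay within the passage 1 range (0.40, 95% interval 0.0024 to 0.80, adjusted p = 0.251). TOP2A, the topoisomerase that untangles chromosomes before they separate, stood at 1218, 1298 and 1317 at passage 4, 830.1, 707 and 521 in regenerated cells and 776, 800.4 and 888 at passage 1, with the passage 4 arrays above the other 6 and a difference of 0.63 (95% interval 0.20 to 1.06, adjusted p = 0.0938). SMC4, a condensin subunit that compacts chromosomes, stood at 436, 634 and 529 at passage 4, 405, 748 and 237 in regenerated cells and 357, 291 and 318 at passage 1, and was at 0.69 (95% interval -0.048 to 1.43, adjusted p = 0.294). Regenerated array 2 was the highest of all 9 arrays for SMC4, the only gene of the 28 whose highest array was not a passage 4 array.

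Set side by side, cyclins, kinases and their regulators rose in 6 of 13 cases at passage 4, with a median of 1.05 on the log2 scale. Spindle, kinetochore and checkpoint genes rose in 4 of 9, with a median of 0.90, where 2.71% of all tested probe sets rose. These 4 include HMMR, which met the filter only through passage 4 and carries no weight. The ranges of the cyclin and the spindle groups, from 0.28 to 1.52 and from 0.38 to 1.91, overlapped. The difference between these groups of genes was not tested. In a fit with the spike-in class as a block, which sets passage 4 against passage 1 array 1, all 28 differences lay above 0, with a median of 0.96, but only AURKB (1.51, adjusted p = 0.0471) and UBE2C (1.09, adjusted p = 0.0473) passed, where 0.980% of all probe sets did. The count of 12 was 4 and 7 without passage 1 array 2 or 3, where 1.59% and 3.41% of all probe sets passed, against 4.79%. The calls of CCNB1 and HMMR were kept in 9 of 19 and 8 of 18 alternatives.

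Regenerated cells did not differ from passage 1 cells in these genes past the threshold. Of the 28, 0 rose and 0 fell in limma, where 5.49% of all tested probe sets passed, 2.98% higher and 2.51% lower, and 1 had an unadjusted p under 0.05. Their median difference was -0.20 on the log2 scale, against -0.0056 over all tested probe sets, with 9 genes above 0 and 19 below, where 49.4% of all probe sets lay above 0. CENPF was the highest, at 0.72 (95% interval 0.036 to 1.40, adjusted p = 0.203), and every regenerated array was above every passage 1 array, which held for 12.3% of tested probe sets. CKS1B was the other gene without overlap and lay lower in regenerated cells, at -0.23 (95% interval -0.53 to 0.067, adjusted p = 0.354), as did 10.8% of probe sets. NUF2 was the lowest, at -0.65 (95% interval -1.29 to 0.00044, adjusted p = 0.228). CCNA2 was at -0.53 (95% interval -1.14 to 0.086), AURKA at -0.46 (-1.09 to 0.17) and CDK2 at -0.44 (-1.0 to 0.12). Each of these intervals includes 0. On its other probe sets CDK2 was at -0.016 and -0.025. CDC20, KIF20A and SMC4 were at -0.14, -0.36 and 0.36, and without regenerated array 2 they were at 0.058, 0.22 and -0.044. Without regenerated array 3 the sign turned for 5 of the 28 genes. MAD2L1 and RACGAP1 were at -0.28 and -0.068 and did not pass (adjusted p = 0.311 and 0.866). In the same comparison 3 of 8 tested fibroblast markers rose and 0 fell, with 8 above 0, and 1 of 4 tested smooth muscle markers rose. Of all tested probe sets 2.98% rose. The part of other cells in the levels of the 28 genes was not tested.

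**Figure D2:**
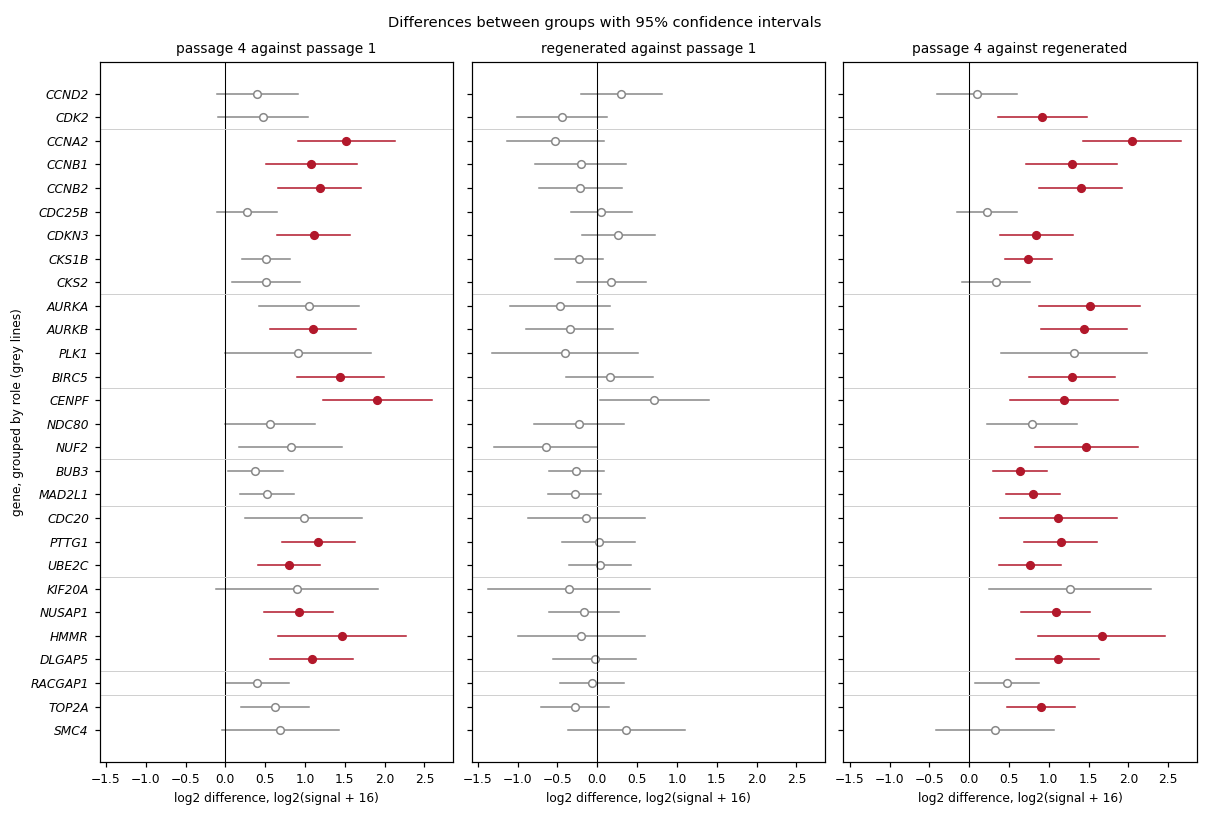
The x axis is the difference of log2(signal + 16) in 3 comparisons, each point a gene with its 95% confidence interval, filled red where the adjusted p was under 0.05 and open grey otherwise, and grey lines part the roles. Red points number 12 of 28 for passage 4 against passage 1, 0 for regenerated against passage 1 and 20 for passage 4 against regenerated. Of all tested probe sets 4.79%, 5.49% and 12.5% passed in these comparisons.

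The regenerated arrays differed among themselves. The median level of the 28 genes relative to their passage 1 means was 0.13, -0.17 and -0.47 on the log2 scale in regenerated arrays 1, 2 and 3. The passage 4 arrays had 0.89, 0.82 and 0.86, and the passage 1 arrays -0.078, 0.0019 and 0.066. Regenerated array 3 was the lowest of all 9 arrays for 17 of the 28 genes. That array also had the lowest 5' minus 3' difference of the spike-ins and of the pig's own actin (-2.78) and ef1a (-2.25) transcripts. In the other regenerated arrays the actin difference was -1.65 and -2.16, against -0.35, -0.54 and -0.45 at passage 4 and -0.67, -1.71 and -1.37 at passage 1. The part of this difference in the lower levels was not tested. Without regenerated array 3 the median difference to passage 1 was -0.0049, with 14 genes above 0 and 14 below, and without regenerated array 1 it was -0.36. The median standard deviation of a gene's log2 values within a group was 0.16 at passage 4, 0.36 in regenerated cells and 0.24 at passage 1, against 0.21, 0.28 and 0.31 over all tested probe sets.

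**Figure D3:**
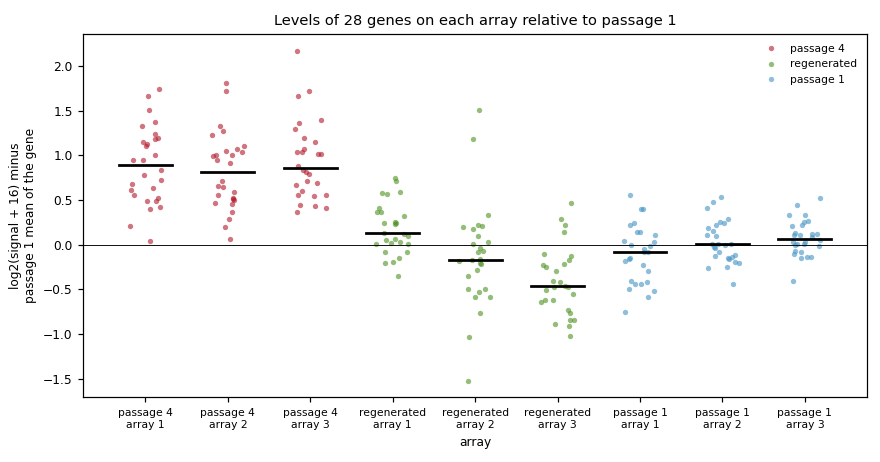
The y axis is log2(signal + 16) minus the gene's mean over the passage 1 arrays, each point 1 of 28 genes and each black line their median, for 9 arrays coloured by group. The passage 4 medians lie at 0.89, 0.82 and 0.86, the regenerated ones at 0.13, -0.17 and -0.47 and the passage 1 ones near 0.

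Between passage 4 and regenerated cells more of these genes passed. Of the 28, 20 rose and 0 fell at passage 4 relative to regenerated cells, while 12.5% of all tested probe sets passed, 8.14% higher and 4.35% lower. All 28 differences lay above 0, as did 50.7% of those of all probe sets. The median was 1.10 on the log2 scale, against 0.0084 over all tested probe sets, and in 23 genes the passage 4 and regenerated arrays did not overlap, as in 20.1% of tested probe sets in that direction. This comparison shares its passage 4 arrays with that against passage 1, so the counts are not separate evidence.

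Cyclin A2 had the highest of these log2 differences, 2.05 (SE 0.28, adjusted p = 0.00192), or 4.13-fold. CCNB2 and CCNB1 rose by 1.40 and 1.29 (adjusted p = 0.00516 and 0.00955). The kinase genes AURKA, AURKB and CDK2 rose by 1.51, 1.45 and 0.92 (adjusted p = 0.00788, 0.0052 and 0.0369), and survivin by 1.29 (adjusted p = 0.00803). CDKN3 and CKS1B rose by 0.84 and 0.74 (adjusted p = 0.0224 and 0.00668).

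Among kinetochore and checkpoint genes NUF2, CENPF, MAD2L1 and BUB3 rose by 1.47, 1.19, 0.80 and 0.64 (adjusted p = 0.00915, 0.0281, 0.00788 and 0.0211). All 3 anaphase genes passed, PTTG1 at 1.15, UBE2C at 0.76 and CDC20 at 1.12, the last by the narrowest margin (adjusted p = 0.00647, 0.0167 and 0.049997). Of all tested probe sets 8.14% rose in this comparison. The calls of CDC20 and CDK2 were kept in 5 of 19 and 10 of 20 alternatives. DLGAP5 and NUSAP1 rose by 1.11 and 1.09 (adjusted p = 0.012 and 0.00647), HMMR, which met the filter only through passage 4, was at 1.66 (adjusted p = 0.0135), and TOP2A rose by 0.91 (adjusted p = 0.0123). The 8 genes that did not pass were PLK1 (1.32, adjusted p = 0.0624), NDC80 (0.79, 0.0684), KIF20A (1.26, 0.0985), RACGAP1 (0.47, 0.115), CKS2 (0.34, 0.29), CDC25B (0.22, 0.436), SMC4 (0.33, 0.57) and CCND2 (0.10, 0.82).

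No passage 4 array shares its spike-in class with a regenerated array, so a fit with that class as a block compares the 2 groups only through passage 1. There 0 of 28 genes passed in limma, with 20 at an unadjusted p under 0.05, and 0.229% of all probe sets did. The median difference was 1.01 and all 28 genes lay above 0, while the median standard error of the 28 genes was 0.40 against 0.24. Without passage 4 array 3 or regenerated array 3 the count of 20 was 11 and 12, where 6.43% and 5.85% of all probe sets passed, against 12.5%. For 28S ribosomal RNA the passage 4 arrays had signals of 8620.4, 8243 and 7776, the regenerated arrays 2834, 3671 and 5351 and the passage 1 arrays 5849, 4185 and 2511. Among the summed markers of other cell types, only those of fibroblasts separated passage 4 from regenerated arrays. The summed signal of 9 measured fibroblast markers of 11 listed ran from 1981 to 2155 at passage 4, from 4886 to 6736 in regenerated cells and from 1281 to 3602 at passage 1. That of 7 measured smooth muscle markers of 10 ran from 7128 to 22239 at passage 4, from 20247 to 30630.1 in regenerated cells and from 8687 to 24362 at passage 1. That of 9 measured leukocyte markers of 12 ran from 231 to 394 at passage 4, from 217 to 282 in regenerated cells and from 278 to 323 at passage 1, and PTPRC, the marker all leukocytes carry, was at most 25.8 on any array. That of 13 measured endothelial markers of 16 ran from 24336 to 25381 at passage 4, from 23150 to 33750 in regenerated cells and from 24810 to 30309 at passage 1. A sum follows its brightest genes: FBLN1 for fibroblasts, ACTA2 and TAGLN for smooth muscle, and CDH5 and PECAM1 for endothelium. Of 8 tested fibroblast markers 3 fell at passage 4 against regenerated cells and 0 rose, with 6 below 0 and 2 above. These 8 include DCN and LUM, which met the filter on dim probe sets only through passage 4. Of 4 tested smooth muscle markers 1 fell and 0 rose, with 4 below 0 and 0 above (median -1.45), where 4.35% of all probe sets fell. The part of other cells in the levels of the 28 genes was not tested. The spike-in, rRNA and marker values above apply to each gene group of this comparison.

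For 6 of the 28 genes more than 1 probe set was measured, 13 in all. Between passage 4 and passage 1 the second brightest probe set gave a larger difference than the brightest in 6 of 6 genes. For NUSAP1 the differences were 0.92 and 2.02 (adjusted p = 0.0256 and 0.00944), for DLGAP5 1.08 and 1.75 (0.0278 and 0.0214) and for UBE2C 0.80 and 1.14 (0.0283 and 0.0492), in the order brightest, second. AURKA, which missed the threshold on its brightest probe set, passed on the second at 1.56 (adjusted p = 0.0137). CDK2 did not pass on its brightest or second probe set, at 0.47 and 0.69, but did on the third, at 1.38 (adjusted p = 0.0442). SMC4 passed on neither (0.69 and 0.95, adjusted p = 0.294 and 0.0922). Between passage 4 and regenerated cells the second probe set gave the larger difference in 4 of 6 genes, with CDK2 and SMC4 as the exceptions. CDK2 did not pass there on its second probe set (0.71, adjusted p = 0.214) and did on the third (1.41, 0.0217), and for AURKA the second gave 2.43 and the brightest 1.51. Between regenerated and passage 1 cells the second probe set had the sign of the brightest in 5 of 6 genes, and 0 passed on either. There CDK2 was at -0.44, -0.016 and -0.025 from the brightest to the third. AURKA was at -0.46 and -0.87, and NUSAP1 at -0.17 and 0.19, brightest first.

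**Figure D4:**
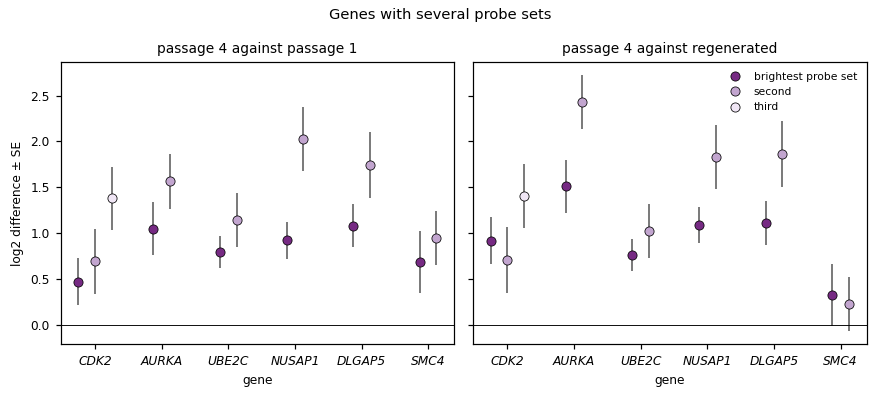
The y axis is the difference of log2(signal + 16) with its standard error (bars) for each probe set of 6 genes, ordered and shaded from the brightest to the dimmest, in 2 comparisons. All 13 points lie above 0 in both panels, and in the left panel each second point is above the first.

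The rest of the cell cycle was followed through lists of genes outside the 28. Of 28 tested further mitotic genes 4 rose and 0 fell at passage 4 against passage 1, where 2.71% of all probe sets rose and 4.79% passed, with a median of 0.52 on the log2 scale. OIP5 and DSN1, counted in these 28, met the filter on dim probe sets only through passage 4, so their differences carry no weight. Neither rose past the threshold. The 4 that rose were PIMREG, a regulator of the metaphase to anaphase step (1.52, adjusted p = 0.0224), the centrosome kinase gene NEK2 (1.20, 0.0136), and the spindle and kinetochore genes SPAG5 and SKA1. Of 30 DNA replication genes 3 rose and 0 fell, with a median of 0.53, among them TYMS, for thymidylate synthase (1.79, adjusted p = 0.0443). In the same limma fit 0 of 9 subunits of the anaphase-promoting complex passed (median 0.075, 1 with an unadjusted p under 0.05), 0 of 5 genes of the retinoblastoma and E2F machinery (median 0.33, 1 such) and 0 of 4 tested inhibitors of cyclin-dependent kinases (median -0.078, 2 such). The latter 2 include CDKN2C, which met the filter on dim probe sets only through passage 4.

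Between regenerated and passage 1 cells, 1 of the 28 further mitotic genes passed, or 3.57%, and 1 of 30 replication genes, or 3.33%, both below the 5.49% of all probe sets. The mitotic gene was WEE1, the kinase that holds CDK1 inactive, at 1927 ± 50.1 in regenerated cells and 1099.8 ± 137 at passage 1 (SD, n = 3 each; 0.81, adjusted p = 0.0151). The replication gene was PRIM2, for a primase subunit, which was lower (-1.17, adjusted p = 0.0283), and the median of the 30 was -0.30. Between passage 4 and regenerated cells 14 of the 30 replication genes rose and 0 fell, where 12.5% of all probe sets passed and 8.14% rose, led by MCM4, a subunit of the replicative helicase (3.10, adjusted p = 0.00803), and TYMS (2.65, 0.00504). Of the further mitotic genes 8 rose and 1, WEE1, fell (-0.60, adjusted p = 0.0299). The genes tested there include OIP5 and DSN1, which met the filter on dim probe sets only through passage 4.

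The inhibitors of cyclin-dependent kinases held 3 of 4 tested genes that passed between passage 4 and regenerated cells, where 12.5% of all probe sets did: 2 fell and CDKN2C was higher. CDKN1B, for p27, averaged 549 ± 88.4 at passage 4, 1576 ± 630.0 in regenerated cells and 893 ± 209 at passage 1 (SD, n = 3 each), and was lower at passage 4 than in regenerated cells by a log2 difference of -1.44 (adjusted p = 0.00791). CDKN1A, for p21, averaged 3939 ± 119 at passage 4, 6218 ± 1234 in regenerated cells and 4959.7 ± 1137 at passage 1, with a difference between passage 4 and regenerated cells of -0.64 (adjusted p = 0.0442). CDKN2C, for p18, averaged 119.8 ± 56.1 at passage 4, 7.0 ± 3.54 in regenerated cells and 23.1 ± 33.4 at passage 1 (2.47 between passage 4 and regenerated cells, adjusted p = 0.0118), but met the filter on dim probe sets only through passage 4, so that difference carries no weight. Against passage 1 none of these 3 passed at passage 4, at -0.67, -0.31 and 2.02 (adjusted p = 0.2, 0.417 and 0.0512).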

How the data were processed

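The 50 members and all gene lists were chosen with earlier results of these data known, and so was the split of the arrays by their spike-in signals. The authors deposited one intensity per probe set and array, a MAS5 signal per the submitters' processing notes. Its version and scaling target, and any detection calls, were not named in these sources. The trimmed mean, leaving out 2% at each end, was 500.1 on every array, and a summary of this kind hides any shift common to all genes. Of 24123 probe sets, 124 controls were left out. The platform annotation gives 1 symbol for 10069 probe sets, several for 198 and none for 13732, and CDK6 had only probe sets that list its symbol repeatedly, which were not used.

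Values were taken as log2(signal + 16), which understates changes of dim genes. The filter kept 15299 probe sets that exceeded an array's 40th percentile on 3 or more of the 9 arrays. One limma fit (limma 3.58.1, R 4.3.3) held all 9 arrays and 3 groups, with 6 residual degrees of freedom, a trended prior and Benjamini-Hochberg adjustment over all tested probe sets within each comparison, and a threshold of 0.05. The fit was run on simulated data with independent noise and no effect of spike-in class, so that run does not bear on the spike-in split. Intervals are 95%. Figures were drawn with matplotlib 3.10.9.

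Values per array are given for members past the threshold in any comparison and, in each role, for the member with the largest difference to passage 1. Of the other lists, at most the 2 largest rises and falls per comparison were to be named; the naming of all 4 risen further mitotic genes, and the values of the CDK inhibitors against passage 1, go beyond that and were chosen after their values were seen. The alternatives changed the pseudocount, filter, normalization, trend, arrays in the fit, probe set, replicate block and spike-in class, a split read from the dap and thr signals that no label names, and left out each array in turn. No genome or sequence table was used, so positions and sequences are not given.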

Additional observations from a re-analysis of the deposited data

Results flagged for a closer look

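The change against passage 1 differed between passage 4 and regenerated cells for 20 of the 28 genes, by the limma test of that difference, which is the comparison of passage 4 with regenerated cells, where 12.5% of all tested probe sets passed. On the log2 scale the differences among the cyclins, kinases and their regulators were 2.05 for CCNA2, 1.29 for CCNB1, 1.40 for CCNB2, 0.84 for CDKN3, 0.74 for CKS1B, 0.92 for CDK2, 1.51 for AURKA, 1.45 for AURKB and 1.29 for BIRC5. Among the kinetochore, checkpoint and spindle genes they were 1.19 for CENPF, 1.47 for NUF2, 0.64 for BUB3, 0.80 for MAD2L1, 1.09 for NUSAP1, 1.66 for HMMR and 1.11 for DLGAP5. They were 1.12 for CDC20, 1.15 for PTTG1, 0.76 for UBE2C and 0.91 for TOP2A. With the spike-in class as a block 0 of these 20 passed in limma, while the median over the 28 genes was 1.01, against 1.10, and all 28 lay above 0. HMMR met the filter on dim probe sets only through passage 4. Groups of 3 arrays were not tested for single outlying arrays.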

How the results depend on the processing

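The direction of the 28 genes against passage 1 at passage 4 was the same under every alternative run, and their count past the threshold was not. With a pseudocount of 64 their median was 0.80, against 0.91. With the spike-in class as a block, 2 of 28 rose between passage 4 and passage 1, with 150 probe sets called in all, and 0 of 28 between passage 4 and regenerated cells, with 35 called in all. Between regenerated and passage 1 cells, 479 probe sets passed with only those groups in the fit, against 840. Leaving out each array in turn gave 2 to 13 called genes of the 28, medians of 0.76 to 0.98 and 244 to 1403 probe sets in all for passage 4 against passage 1. It gave 0 to 1, -0.36 to -0.0049 and 291 to 1238 for regenerated against passage 1, and 11 to 22, 0.90 to 1.12 and 895 to 2406 for passage 4 against regenerated. Among the 11 genes named between regenerated and passage 1 cells, signs turned for CDC20, to 0.071 without passage 1 array 2, 0.058 without regenerated array 2 and 0.033 without regenerated array 3 (range -0.50 to 0.071). Without regenerated array 2, KIF20A turned to 0.22 (range -0.91 to 0.22) and SMC4 to -0.044 (range -0.044 to 0.75). Over all 28 genes, 1 to 5 turned there when a passage 1 or regenerated array was left out. Between passage 4 and regenerated cells SMC4 turned to -0.063 without regenerated array 3 (range -0.063 to 0.73). The cause was not tested. Whether the replicate numbers pair the arrays cannot be settled from deviations within groups of 3. Correlations of same-numbered arrays' deviations ran from -0.138 to 0.186, and 2 of 9 arrays correlated best with their own number. The replicate block gave 8, 0 and 18 called genes of the 28 and 549, 554 and 1626 probe sets in all for passage 4 and for regenerated cells, each against passage 1, and for passage 4 against regenerated cells. Dim signals limit HMMR and KIF20A most.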
